A study of Homo sapiens with 4 samples.

Results

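The lysosomal acidification and digestion genes examined here comprise the subunits of the vacuolar proton pump, the cathepsins and a set of lysosomal membrane proteins and regulators. They were taken by symbol: every gene whose symbol on the array annotation starts with ATP6V0, ATP6V1 or ATP6AP, every cathepsin (CTS followed by 1 letter), and LAMP1, LAMP2, LAMP3, CD63, CD68, SCARB2, MCOLN1, TFEB and TFE3. This gave 49 of the 18417 genes measured by a probe set with 1 gene symbol. They fall into 8 genes of the V0 sector, 12 of the V1 sector, 3 of accessory proteins, 11 cysteine, 2 aspartic and 2 serine cathepsins, 6 membrane proteins and 3 regulators. The prefix rule also takes in 2 noncoding genes, ATP6V0E2-AS1 and ATP6AP1-DT, which encode no subunit.

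HOS and U2-OS cells, both established human osteosarcoma lines, were left without OGE or given OGE at 600 μg/mL, all for 24 h, which makes 4 groups with 1 array each. OGE is not spelled out in the labels. Each line is a single cell line, so a difference between HOS and U2-OS is one between these cultures, and in bulk RNA fewer cells of a type and less RNA per cell cannot be told apart. The comparison of interest is the gene expression of each line with and without OGE. The 4 arrays had medians of 3.58 to 3.62 (log2), and 6 of 7 markers of mesenchymal and osteoblast lineage were at or above the median on all 4 arrays, among them COL1A1, SPARC and RUNX2. The mean level of these 7 markers was 7.36 without and 6.84 with OGE in HOS and 6.49 and 6.0 in U2-OS, and COL1A2 was lower by size with OGE in HOS and COL1A1 and SPARC in U2-OS. The part of that shift in the results below was not tested. Of 5 epithelial markers, only KRT8 and KRT18, keratins of simple epithelia, were above the median on all 4 arrays. CDH1 was below it on all 4, and EPCAM and KRT19 were below it on at least 1 array.

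The vacuolar ATPase is a rotary pump that acidifies lysosomes and other organelles. Its cytosolic V1 sector hydrolyses ATP, and its membrane-embedded V0 sector carries protons across the membrane. Cathepsins are proteases that work best in the acid lumen, and LAMP proteins coat the inner face of the lysosomal membrane. TFEB and TFE3 are transcription factors that bind the CLEAR element in front of many lysosomal genes, and they are held in the cytoplasm when mTORC1 is active.

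The promoter stretches below are shown because they carry the core of the CLEAR element in front of members whose values are described next. They come from RefSeq on GRCh38.p14 and are read on the strand of the gene, with the core in capitals (TCACGTG, or CACGTGA where it was found on the opposite strand; a palindromic hit reads TCACGTGA). ATP6V0B is shown at chr1:43974832-43974931 (+), ATP6V0D1 at chr16:67481205-67481304 (-), CTSD at chr11:1763963-1764062 (-), MCOLN1 at chr19:7522522-7522621 (+) and LAMP1 at chr13:113297123-113297222 (+). All lie before the annotated start of transcription.
ATP6V0B: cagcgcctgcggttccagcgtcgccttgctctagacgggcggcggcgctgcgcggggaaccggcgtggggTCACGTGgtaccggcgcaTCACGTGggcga
ATP6V0D1: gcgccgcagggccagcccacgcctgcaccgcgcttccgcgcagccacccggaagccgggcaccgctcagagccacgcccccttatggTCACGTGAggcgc
CTSD: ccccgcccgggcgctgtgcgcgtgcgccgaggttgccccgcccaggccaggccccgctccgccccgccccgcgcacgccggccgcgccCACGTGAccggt
MCOLN1: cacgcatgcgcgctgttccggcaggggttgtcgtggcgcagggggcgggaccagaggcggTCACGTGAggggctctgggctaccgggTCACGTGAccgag
LAMP1: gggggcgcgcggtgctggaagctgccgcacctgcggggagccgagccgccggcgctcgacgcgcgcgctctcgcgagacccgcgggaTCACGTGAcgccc
The stretches of ATP6V0B and MCOLN1 hold 2 copies of the core each, and those of ATP6V0D1, CTSD and LAMP1 hold 1. The full searched window of LAMP1 holds 6, of which the stretch shows 1, while those of the other genes shown hold no more than is printed.

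Most members were expressed in both lines and moved little with OGE. On the 4 arrays, 36 members were at or above the array median throughout and 11 were below it on every array, so that their differences are of low signals that RMA pulls together. The 11 were ATP6V0D2, ATP6V1C2, ATP6V1E2, ATP6V1G3, ATP6AP1L, CTSE, CTSG, CTSK, CTSO, CTSS and CTSW. With 1 array per group, a gene is called higher or lower by size when 2 arrays differ by at least 1 on the log2 scale, which is 2-fold, and the higher value is at or above the median of its array. With OGE, 3 of the 37 members that could be called in HOS were higher and 2 were lower, against 1.70% and 2.18% of all genes (3.88% in either direction). Of 37 members in U2-OS, 2 were higher and 3 lower, against 2.94% and 7.88% of all genes (10.8% in either direction). The members' shares in either direction were 13.5% in each line, above the background in HOS and near it in U2-OS. After quantile normalization or cyclic loess the splits were 3 higher and 1 lower in each line, and the shares of all genes after these scalings are not given here. The median change over the members was 0.09 in HOS and 0.06 in U2-OS, beside 0.02 and 0.03 over all genes.

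**Figure D1:**
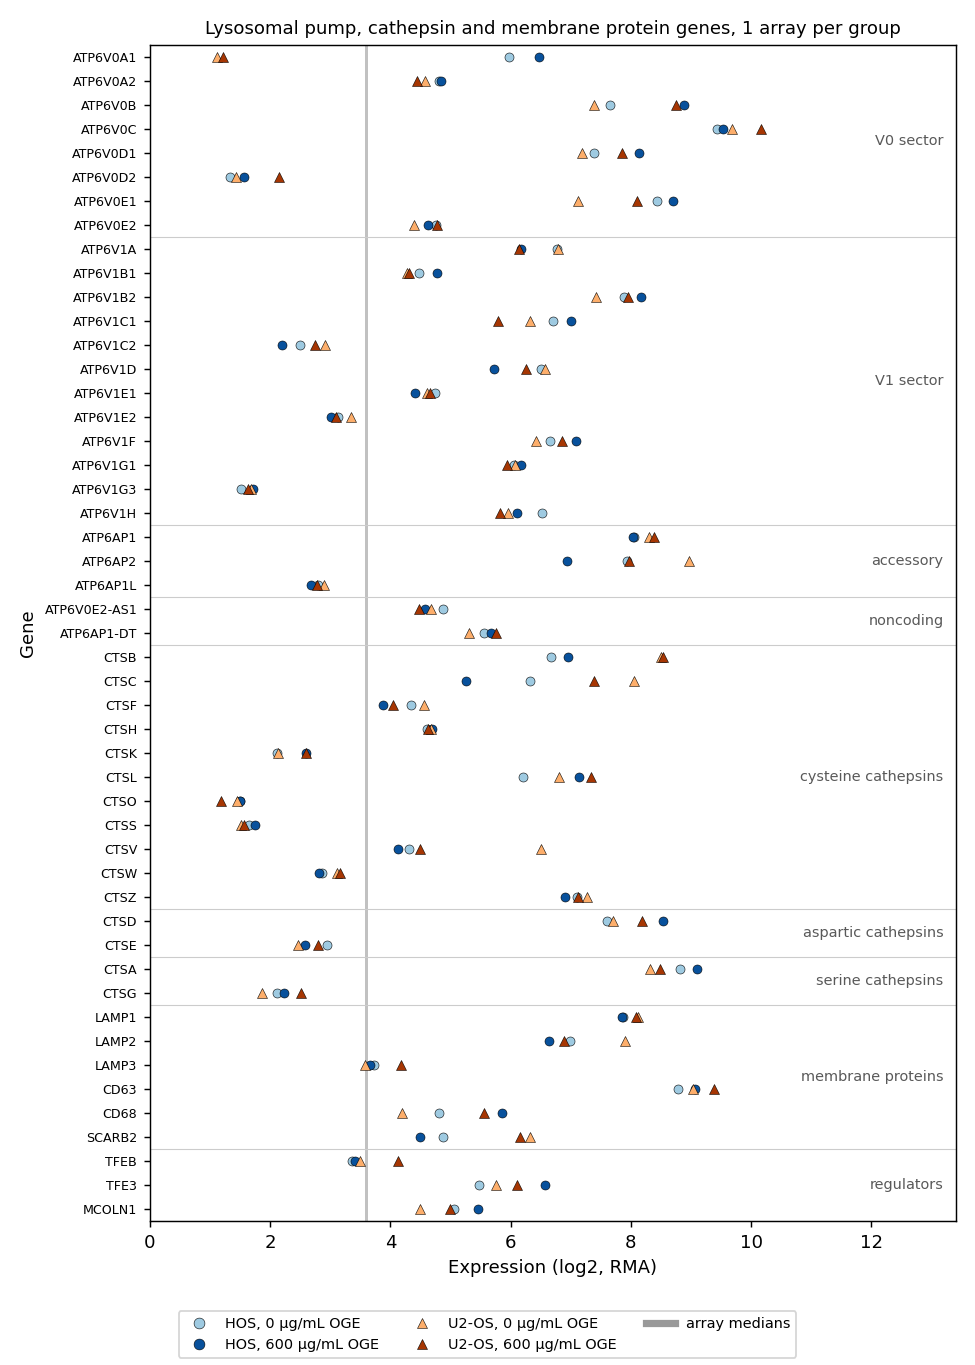
Expression (log2, RMA) of the 49 genes on each of the 4 arrays, grouped by role. Circles are HOS and triangles U2-OS, light without and dark with OGE, each point is 1 array, and the grey band spans the array medians of 3.58 to 3.62. ATP6V0A1 shows the widest separation of the lines, with both U2-OS points near 1 and both HOS points near 6.

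Over both lines, limma, a linear model fitted on all 18417 genes with cell line and OGE as terms, called 0.00% of genes for OGE at an adjusted p under 0.05, and so 0 members. At an unadjusted p under 0.05 it had 13 of the 49 members, beside 14.2% of all genes. These were ATP6V0B, ATP6V0D1, ATP6V1A, ATP6V1D, ATP6AP2, CTSC, CTSD, CTSF, CTSK, CTSL, LAMP2, CD68 and TFE3, all with adjusted p of at least 0.228 in limma. The 2 lines serve as the repeats of this contrast, so the p-values rest on how far their responses differ, moderated over all genes. The labels do not state whether cultures were separate, and that spread may be technical as well as one between the lines. The values below are therefore descriptions of the arrays by size. Limma values between the lines come from the same fit, with the treatment states of each line as the repeats, and carry the same limit.

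In the V0 sector, ATP6V0B was higher by size with OGE in both lines. It encodes the c'' proteolipid of the proton-carrying ring. Its level was 7.65 without and 8.88 with OGE in HOS, and 7.39 and 8.75 in U2-OS. Both treated arrays were above both untreated ones, with changes of 1.23 and 1.36, a mean of 1.30 ± 0.09 (SD, n = 2 lines). In limma its unadjusted p was 0.000964 and its adjusted p 0.228, which misses the threshold.

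ATP6V0D1, which encodes the d subunit that links the ring to the V1 stalk, changed in the same direction by less than the size threshold. It stood at 7.39 and 8.14 in HOS without and with OGE, and at 7.18 and 7.86 in U2-OS. Its changes of 0.75 and 0.68 (adjusted p of 0.246 in limma) again left the treated arrays above the untreated ones. ATP6V0E1, a small membrane subunit, was at 8.44 and 8.70 in HOS and at 7.12 and 8.10 in U2-OS. Its change of 0.98 in U2-OS lay just under the threshold, and quantile normalization made it 1.12 and cyclic loess 1.06. ATP6V0C, the main proteolipid of the ring, had changes of 0.11 and 0.48. Over the 8 genes of the sector the medians were 0.24 in HOS and 0.58 in U2-OS, and 6 had a positive change in both lines. Of all 18417 genes, 6069 had a positive change in both. The 6 include ATP6V0D2, below the median on every array, and ATP6V0A1, below it on both U2-OS arrays.

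The V1 sector did not move in one direction. None of the 9 of its 12 genes that could be called was called by size with OGE in either line. ATP6V1A, the catalytic subunit, had changes of -0.59 and -0.65, and ATP6V1D, part of the central rotor, of -0.79 and -0.32. ATP6V1B2, the subunit that shares the catalytic ring with ATP6V1A, had changes of 0.29 and 0.54, and ATP6V1F of 0.43 in each line. Of the 12 genes, 3 had a positive and 5 a negative change in both lines, and the medians were 0.00 and -0.13. Of all 18417 genes, 6069 had a positive and 5033 a negative change in both. The 5 include ATP6V1C2 and ATP6V1E2, which were below the array median throughout. Over the 9 genes that could be called the medians were 0.12 and -0.12. ATP6V1C1, a stalk subunit that also takes part in reversible assembly of the pump, was at 6.71 and 7.0 in HOS and at 6.32 and 5.79 in U2-OS. Its changes of 0.29 and -0.53 have opposite signs.

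ATP6AP2, the accessory protein also known as the prorenin receptor, was lower with OGE by exactly the size threshold in both lines. Its level was 7.94 and 6.94 in HOS, and 8.97 and 7.97 in U2-OS. Each change was -1.0, a 2-fold difference, and the treated U2-OS array stood near the untreated HOS array. Quantile normalization gave -0.94 in HOS and -0.89 in U2-OS, and cyclic loess -0.98 and -0.92, so the call by size rests on the deposited scaling. The other accessory subunit gene above the median, ATP6AP1, had changes of -0.02 and 0.07. ATP6AP1-DT and ATP6V0E2-AS1, the noncoding genes, had changes of 0.11 and 0.44 and of -0.31 and -0.19.

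**Figure D2:**
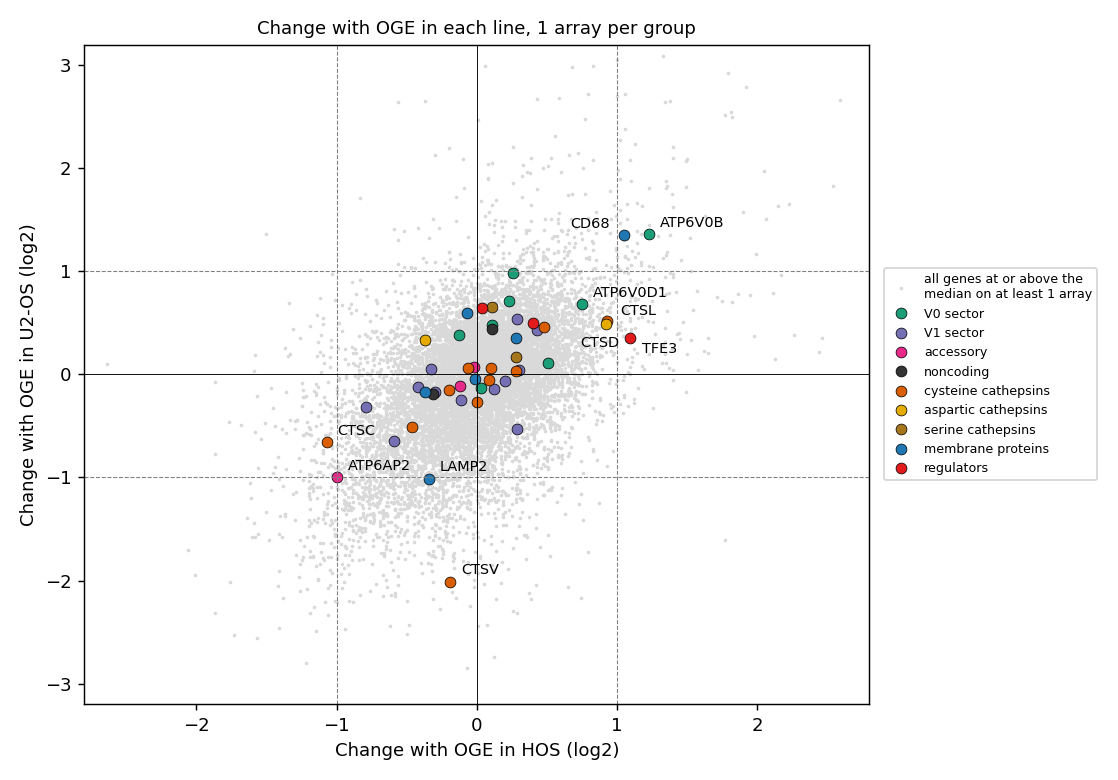
Change with OGE (log2) in HOS on the horizontal axis and in U2-OS on the vertical axis, 1 array per group. Grey points are the 12029 genes at or above the median on at least 1 array, of which 17 lie outside the axes, coloured points are members by role, and dashed lines mark the size threshold of 1. ATP6V0B and CD68 lie beyond the threshold in both lines at the upper right, ATP6AP2 lies on it at the lower left, and CTSV is lower in U2-OS alone by size.

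Among the cathepsins, the abundant lysosomal proteases CTSD and CTSL were higher with OGE in both lines by less than 2-fold. CTSD, an aspartic protease, was at 7.61 and 8.53 in HOS and at 7.70 and 8.19 in U2-OS. CTSL, a cysteine protease, was at 6.2 and 7.13 in HOS and at 6.81 and 7.33 in U2-OS. In both genes the treated arrays stood above the untreated ones in both lines, with changes of 0.92 and 0.49 for CTSD and of 0.93 and 0.52 for CTSL. Neither passed limma, with adjusted p of 0.272 and 0.262.

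CTSC and CTSV went the other way, each by size in 1 line. CTSC, or dipeptidyl peptidase I, which activates serine proteases of granules, was at 6.32 and 5.25 in HOS and at 8.05 and 7.39 in U2-OS. Its changes were -1.07 and -0.66, with an adjusted p of 0.245 in limma. CTSV, a close relative of CTSL, was at 4.31 and 4.12 in HOS and at 6.50 and 4.49 in U2-OS. Only the untreated U2-OS array was high, and the treated one stood close to the HOS arrays. Its changes of -0.19 and -2.01 made it the 1 member whose responses differed by at least 1 between the lines, by -1.82. With 1 array per group that difference could not be tested. Among all genes that could be called in both lines, 656 of 10810 had responses at least 1 apart, beside this 1 of 36 members.

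The remaining cathepsins above the median were not called by size with OGE. CTSA, a serine carboxypeptidase that also protects lysosomal neuraminidase, had changes of 0.28 and 0.17, CTSB of 0.28 and 0.03, CTSZ of -0.20 and -0.15 and CTSH of 0.09 and -0.05. CTSF had changes of -0.46 and -0.51. Over the 15 cathepsins the medians were 0.09 and 0.06, and 7 had a positive and 4 a negative change in both lines. Of all 18417 genes, 6069 had a positive and 5033 a negative change in both. The 7 include CTSG, CTSK and CTSS, which were below the median on every array, while the 4 were above it. Over the 9 cathepsins that could be called the medians were 0.09 and -0.05. CTSK, the collagen-degrading cathepsin of osteoclasts, was below the median on all 4 arrays, at 2.11 and 2.59 in HOS and at 2.13 and 2.59 in U2-OS.

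Of the membrane proteins, CD68 was higher by size with OGE in both lines. CD68 is a heavily glycosylated lysosomal protein used as a macrophage marker. It was at 4.81 and 5.86 in HOS, and at 4.20 and 5.55 in U2-OS. The treated arrays were above both untreated ones, with changes of 1.05 and 1.35, a mean of 1.20 ± 0.21 (SD, n = 2 lines). In limma its adjusted p was 0.228. ATP6V0B, CD68 and ATP6AP2 were thus the 3 members called in both lines, 8.33% of the 36 that could be called in both, beside 1.86% of all genes.

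Of 11 other markers of macrophages and immune cells, 10 were below the median on every array and so could not be called by size. The other one, TYROBP, was above it and not called, at 3.88 and 4.28 in HOS and at 3.98 and 4.10 in U2-OS. PTPRC, the pan-leukocyte marker, lay between 1.28 and 1.48 and CSF1R between 2.77 and 3.06. The mean level of the list was 2.42 and 2.48 in HOS and 2.33 and 2.53 in U2-OS. With OGE no osteoclast or epithelial marker was called by size, of 3 and 4 that could be called in HOS and of 3 and 3 in U2-OS, and none of the 4 endothelial markers could be called. The part of other cell types in the CD68 values was not tested.

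LAMP2, which also serves chaperone-mediated autophagy, was lower by size in U2-OS. It was at 6.98 and 6.64 in HOS and at 7.90 and 6.89 in U2-OS. The untreated U2-OS array stood above the other 3, and the change of -1.01 there missed the threshold under quantile normalization (-0.93) and cyclic loess (-0.98). LAMP1, which holds the CLEAR core in its promoter window, had changes of -0.01 and -0.04, and no window was searched for its paralogs LAMP2 and LAMP3. CD63, a tetraspanin of lysosomes and exosomes, had changes of 0.28 and 0.35, SCARB2, the receptor that carries glucocerebrosidase to lysosomes, of -0.37 and -0.17, and LAMP3 of -0.07 and 0.60.

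Of the regulators, TFE3 was higher by size in HOS. It was at 5.48 and 6.57 in HOS, and at 5.76 and 6.11 in U2-OS. The treated arrays were the higher ones in both lines, with changes of 1.09 and 0.35 and an adjusted p of 0.319 in limma. TFEB was near the array median, at 3.37 and 3.41 in HOS and at 3.49 and 4.13 in U2-OS, with changes of 0.04 and 0.64. MCOLN1, the calcium channel of the lysosomal membrane, was at 5.06 and 5.46 in HOS and at 4.50 and 5.00 in U2-OS, with changes of 0.40 and 0.50. Neither of these was called by size.

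The CLEAR core, searched as TCACGTG on both strands from 250 bases before to 50 after each start, was found in 9 of the 34 members with a RefSeq promoter window. That is 26.5% of them, beside 5.87% of the 14237 measured genes with a window and 4.49% of all 27305 genes in the table. The 9 were ATP6V0B, ATP6V0D1, ATP6V0E2, ATP6V1G1, CTSA, CTSD, CTSF, LAMP1 and MCOLN1. Their median change with OGE was 0.28 in HOS and 0.38 in U2-OS, beside 0.04 and 0.05 over the 25 members whose window lacked it, and the ranges overlapped. ATP6V0B was called by size and CTSF, with negative changes in both lines, also held the core. CD68, ATP6AP2 and TFE3 had none in the window. The 15 members without a window, among them ATP6V0E1, ATP6V1A, CTSB and LAMP2, were not searched.

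The E-box CACGTG, which lies within the CLEAR core, was in 10 of the 34 windows and in 10.9% of those of measured genes. The antioxidant response element core TGACNNNGC, on both strands, was in 16 of the 34 windows and in 18.3% of those of measured genes. Of the 16, ATP6V0A1, ATP6V0B, ATP6V0C, ATP6V0D1, CD68, CTSA, CTSD, CTSG and CTSL had positive changes in both lines. CTSG was below the array median throughout, and ATP6V0A1 was below it in U2-OS. CTSC, CTSV, CTSZ, LAMP1 and ATP6V0E2-AS1 had negative changes in both lines. ATP6V0E2 and ATP6V1G1 had changes of opposite signs. The motif sets overlap: ATP6V0B, ATP6V0D1, ATP6V0E2, ATP6V1G1, CTSA, CTSD and LAMP1 also held the CLEAR core. The ATF4-type motif TGATGNAA was in 1 window, that of CTSG, and in 3.59% of measured genes. A match describes these letters in the window and is no measure of binding.

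**Figure D3:**
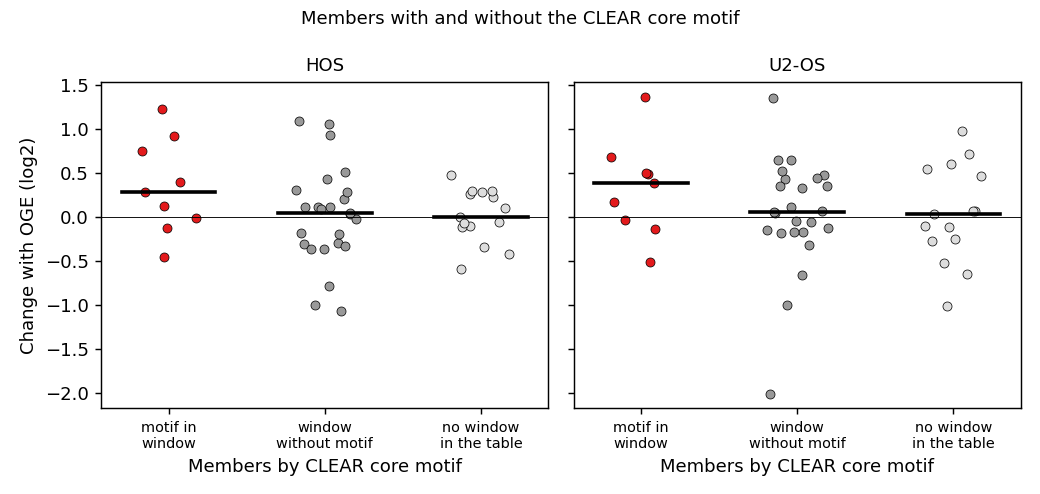
Change with OGE (log2) of the members in HOS and U2-OS, split by the CLEAR core motif in the promoter window. Each point is 1 gene and bars are medians. The 9 genes with the motif run from -0.46 to 1.23 in HOS and from -0.51 to 1.36 in U2-OS, within the spread of the others except for ATP6V0B at the top.

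Other lysosomal genes called by size with OGE are to be read beside the 3.88% of all genes called in HOS and the 10.8% in U2-OS. Of 29 measured acid hydrolases and their activators, 27 could be called in HOS and 28 in U2-OS, and 2 were higher and 0 lower by size in HOS, and 2 were higher and 1 lower in U2-OS. NEU1, the sialidase that CTSA protects, was the 1 hydrolase called in both lines, at 7.59 and 8.64 in HOS and at 7.69 and 8.99 in U2-OS. Its changes were 1.05 and 1.30, with an adjusted p of 0.228 in limma. GLA, or alpha-galactosidase A, had changes of 1.32 and 0.11, HEXA, a subunit of beta-hexosaminidase, of 0.95 and 0.61, and ASAH1, acid ceramidase, of -0.60 and -1.10. The list's medians were 0.06 and -0.08. SGSH, named after its values were seen, was the other hydrolase higher in U2-OS, by 1.04.

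Among 20 lysosomal transporters and channels, none of the 17 that could be called was called in HOS, and 2 of 18 were higher by size in U2-OS. NPC1, the cholesterol exporter, had changes of 0.20 and 1.49 and CTNS, the cystine exporter, of 0.74 and 1.37. CLCN7, the chloride-proton exchanger that works beside the proton pump, had changes of 0.99 and 0.91, just under the threshold in both lines. LAPTM4B had changes of -0.45 and -0.94. The list's medians were 0.09 and -0.01.

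Of 19 measured genes in the nutrient control of TFEB and TFE3, 17 could be called in each line and 1 was higher by size in each. FLCN, part of a complex that licenses mTORC1 to act on TFEB and TFE3, had changes of 1.13 and 0.74, and RRAGD, a Rag GTPase of the same pathway, of 0.65 and 1.19. LAMTOR3 and LAMTOR5, scaffold subunits that anchor mTORC1 control at the lysosome, had changes of -0.86 and 0.63 and of -0.18 and 0.92. The medians over the list were 0.02 and 0.16.

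Of the 9 cystatins, inhibitors of cysteine cathepsins, 6 could be called in HOS and 7 in U2-OS, and none was. CSTB and CST3 had changes of -0.02 and 0.52 and of 0.10 and 0.09. Of 12 measured sorting genes, all 12 could be called in U2-OS and 1 was lower there, GNPTAB, by -1.07. Of 9 further pump and assembly genes, 4 could be called in U2-OS and 1 was lower there, WDR7, by -1.26. Both were named after their values were seen, and with OGE they were below the U2-OS array median, at 2.93 and 3.19. TCIRG1, the a3 subunit gene of the pump, had changes of -0.11 and 0.00. VMA21, an assembly factor, had changes of -0.39 and -0.44, and ROGDI of 0.37 and -0.74. Over the 9 further pump and assembly genes the medians were 0.00 in HOS and -0.44 in U2-OS, where 1 change was positive and 7 were negative. The medians were 0.21 and 0.22 over the cystatins and -0.12 and -0.115 over the sorting genes. The adaptor genes AP3S1, AP3B1 and AP3M1 had changes of -0.77 and -0.72, of -0.70 and -0.49 and of -0.43 and -0.75, while NAGPA had 0.38 and 0.55.

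**Figure D4:**
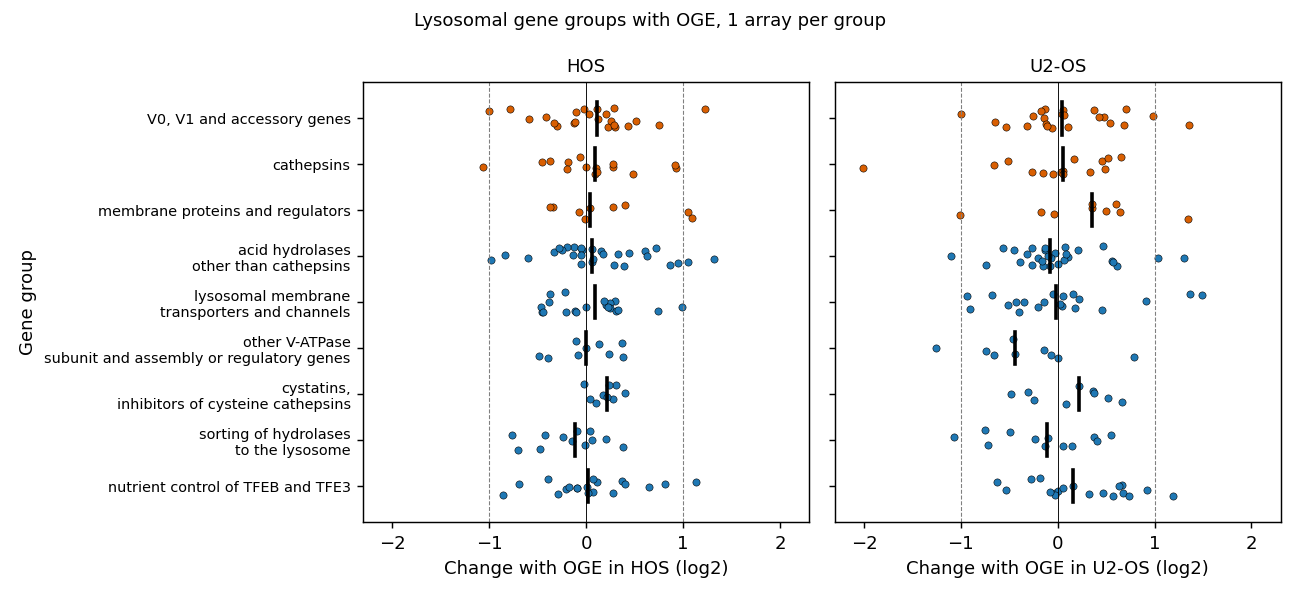
Change with OGE (log2) in HOS and U2-OS by gene group, 1 array per group. Each point is 1 gene, bars are group medians, and dashed lines mark the size threshold of 1. Orange groups are members, without the 2 noncoding genes, and blue groups are the lists of other lysosomal and related genes. Most points lie between the dashed lines, and the medians, with membrane proteins and regulators as 1 group, run from -0.12 to 0.21 in HOS and from -0.44 to 0.35 in U2-OS.

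Between the lines, ATP6V0A1 had the most different level of the members. It encodes the a1 isoform of the V0 subunit that holds the proton channels and steers the pump to its membrane. It was at 5.97 and 6.48 in HOS without and with OGE, and at 1.11 and 1.22 in U2-OS. Both HOS arrays were above their medians, higher than 82.1% and 86.5% of probe sets, and both U2-OS arrays were higher than 6.1% and 5.9%. Since the U2-OS values lie far below the array median, where RMA compresses signals, the size of the difference is read against that median: HOS was 5.24-fold above the median of the U2-OS array without and 7.36-fold above it with OGE. The measured difference, U2-OS minus HOS, was -4.86 without and -5.26 with OGE (adjusted p = 0.0117 in limma), and it carries no exact fold for the same reason.

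The genes beside ATP6V0A1 on the chromosome did not share this difference by size. Of 10 measured protein-coding neighbours, 5 on each side in RefSeq order, 0 were called in either state, with differences from -0.78 to 0.89. The measured genes of other a isoforms were not called between the lines. ATP6V0A2, the a2 isoform, was at 4.81 and 4.84 in HOS and at 4.58 and 4.45 in U2-OS, and TCIRG1 at 5.97 and 5.86 and at 5.30 and 5.30. Their adjusted p in limma was 0.409 and 0.147.

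Of 37 members that could be called in both states, 5 differed between the lines by size with the same sign in both, 13.5% beside 6.17% of all genes. Limma called 4 of the 49 members at an adjusted p under 0.05, 8.16% beside 1.92% of all genes, and had 11 at an unadjusted p under 0.05, 22.4% beside 20.7%. The members higher in U2-OS in both states were CTSB, CTSC, SCARB2 and ATP6AP2. CTSB was at 6.68 and 6.96 in HOS and at 8.50 and 8.53 in U2-OS, a difference of 1.69 with an SE of 0.178 and an adjusted p of 0.0415 in limma. For CTSC, with the levels given above, the difference was 1.94 with an SE of 0.194 and an adjusted p of 0.0405 in limma. SCARB2 was at 4.87 and 4.50 in HOS and at 6.33 and 6.16 in U2-OS, a difference of 1.56 with an SE of 0.175 and an adjusted p of 0.0417 in limma. In these 3 genes both U2-OS arrays were above both HOS arrays.

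ATP6AP2 differed by 1.03 in both states and did not pass limma, with an adjusted p of 0.0669. Its limma adjusted p under the alternatives ran from 0.00996 to 0.413, and 4 of 6 were under the threshold. Without the OGE term in the fit, CTSC had an adjusted p of 0.141 and SCARB2 of 0.0625 in limma, over a range of 0.00175 to 0.141 and of 0.00325 to 0.0625 under the alternatives.

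Other members differed by size in only 1 state. Without OGE 7 of 37 members were called, beside 13.9% of all genes, and with it 6 of 38, beside 11.1%. ATP6V0E1 was lower in U2-OS by -1.32 without and -0.60 with OGE, and CTSV was higher by 2.19 without and 0.37 with it. ATP6V1C1 was lower in U2-OS by -1.21 with and -0.39 without OGE. LAMP2 differed by 0.92 and 0.25. Of 28 hydrolase or activator genes that could be called in both states, 4 were higher in U2-OS by size in both, beside 6.17% of all genes called in either direction. These were GALC, IDS, TPP1 and GM2A, named after their values were seen. GALC was at 2.33 and 2.05 in HOS, below the array medians, and at 5.02 and 4.46 in U2-OS.

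**Figure D5:**
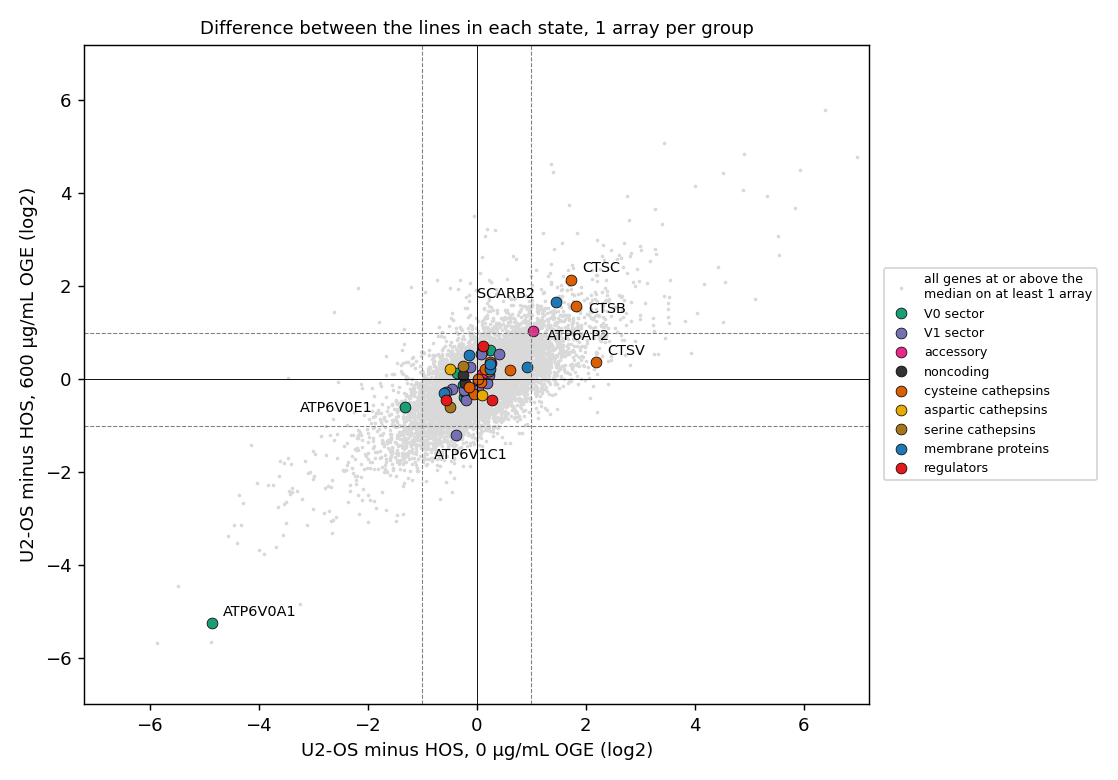
U2-OS minus HOS (log2) without OGE on the horizontal axis and with OGE on the vertical axis, 1 array per group. Grey points are the 12029 genes at or above the median on at least 1 array, of which 2 lie outside the axes, coloured points are members by role, and dashed lines mark the size threshold of 1. ATP6V0A1 lies far to the lower left, and CTSC, CTSB, SCARB2 and ATP6AP2 lie at the upper right beyond both thresholds.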

How the data were processed

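The deposited table holds log2 values of 33297 probe sets on 4 single-colour arrays, summarised by the authors with RMA (version not stated), per the submitters' processing notes. RMA includes background correction and quantile scaling, so low signals are compressed. The log base was taken from the range of values (0.16 to 13.41), which carry 2 decimals. Probe sets with 1 symbol in the 2016 platform annotation (19460) were matched to RefSeq gene IDs, which all 49 members did, and the probe set with the highest mean was kept per gene. Of the members, 1, ATP6AP1L, had more than 1 probe set. Which genome build the array design used is not stated in the labels.

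Limma 3.58.1 in R 4.3.3 was fitted on 18417 genes with Benjamini-Hochberg adjustment over all of them. It has 1 residual degree of freedom before moderation and was tested on simulated data. Python 3.11.15 did the rest. Alternatives were other size thresholds and floors, quantile normalization, cyclic loess, the mean of probe sets, other limma settings, and limma without the other factor.

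The rule named every member called by size between 2 arrays, ATP6V0A1, CD68, TFEB, TFE3 and MCOLN1 with all 4 values, and up to 4 genes of each list at or above the median level with the largest changes. Members and lists were chosen with earlier results of these data known.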

Additional observations from a re-analysis of the deposited data

Results flagged for a closer look

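In 3 members at or above the median, the response to OGE had opposite signs in the lines and differed by at least 0.5, and with 1 array per group the difference was not tested. The share of all genes that meet this rule is not given here. ATP6V1C1 had a difference of responses, U2-OS minus HOS, of -0.82, from changes of 0.29 and -0.53. For LAMP3, a LAMP family member, it was 0.67, from -0.07 and 0.60. LAMP3 was near the array median in HOS, at 3.73 and 3.66, and in untreated U2-OS, at 3.58. For ATP6V0E2 it was 0.51, from -0.13 and 0.38.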

How the results depend on the processing

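With a threshold of 1.5-fold, the members called numbered 10 in HOS, 11 for U2-OS and 6 for both lines together, and at 3-fold 0, 1 (CTSV) and 0, with 2 between the lines in both states. These shifts follow from the threshold itself, and the shares of all genes called at these thresholds are not given here. For OGE, limma called 2 members, ATP6V0B and CD68, after quantile normalization, with adjusted p of 0.0372 and 0.0446, and 0 in its other alternatives; the cause was not tested. Their adjusted p in limma reached 0.761 in other alternatives. Between the lines limma called 2 members, ATP6V0A1 and CTSB, without the OGE term, 4 or 5 otherwise. Over all genes its count between the lines was 354, and 131 without the OGE term, 749 among genes at or above the median level, which leaves out ATP6V0A1, 1309 with trend and robust moderation, 1326 after cyclic loess and 1763 after quantile normalization. For OGE over all genes it was 264 after quantile normalization, 1 with trend and robust moderation and 0 otherwise. Of the 23 calls by size among 56 differences of the 14 named members, 20 were kept and 3 lost after quantile normalization and after cyclic loess alike, and 1 was gained in each. These members have 1 probe set each, so the mean of probe sets could not change their values. Floors changed none of the 4 counts by size. The labels give no replicate numbers. The limma fit pairs the arrays of a line through its line term, and the fit without the other factor is the unpaired one. Leaving out an array leaves limma no residual degree of freedom and was not run. Precision is limited by having 4 arrays.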

Other observations

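ATP6V1G2, a G subunit gene of the V1 sector, has 3 probe sets that also carry the symbol of its readthrough transcript with DDX39B, and they entered no comparison. On these, levels lay between 2.56 and 3.24, and the changes with OGE between -0.21 and -0.07. The second probe set of ATP6AP1L had changes of 0.38 in HOS and -0.06 in U2-OS, at levels from 1.38 to 1.76.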
